A study of Drosophila melanogaster with 13 samples.

Results

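The genes described here are 10 of the 17753 in the deposited count table: the antimicrobial peptide genes DptA, DptB, CecA1, CecB, AttA, Dro, Mtk and Drs, the immune-induced gene IM33, and spz, which encodes the Toll ligand Spätzle. They were chosen by name, with earlier results of these data known, so their p-values and ranks below are descriptive. All 10 were found in the table by their FlyBase identifiers. The RNA came from MN1-Ib, an identifiable glutamatergic motoneuron in the ventral nerve cord of Drosophila melanogaster larvae at instar 3, whose cytoplasm was drawn into a patch pipette. By its title, the study concerns how Notch and Nerfin-1 preserve the shape of the action potential. All 13 libraries carried the MN1-Ib-GAL4 driver and the membrane reporter UASmCD8:GFP. The groups were Notch+Shal RNAi (Notch RNAi and Shal_RNAi together, n = 3), Notch RNAi (n = 4), Shal RNAi (n = 3) and Control (driver and reporter without either RNAi, n = 3). Shal encodes a Kv4-type potassium channel, and the RNAi was driven by the same motoneuron driver as the reporter. Cells of 1 or 2 larvae were combined, 4 to 8 per reaction, so a replicate is a reaction, and p-values measure the spread between reactions. The labels used here do not name the RNAi lines or the larvae's age within the instar.

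Antimicrobial peptides are short secreted proteins that insects make against bacteria and fungi, for the most part in the fat body and in blood cells. In Drosophila their genes are switched on through a pair of NF-kappaB routes. In the Toll route, a protease cascade cleaves Spätzle, which binds the receptor Toll, and the adaptors Myd88, tube and pelle then free the factors Dorsal and Dif from the inhibitor Cactus. In the Imd route, peptidoglycan receptors such as PGRP-LC act through imd and lead to cleavage of the factor Relish. Drosomycin and the Bomanins are textbook outputs of the Toll route, and diptericins, cecropins, attacins and drosocin of the Imd route, with overlap between the routes. Spätzle belongs to a family that also acts as neurotrophins in the fly nervous system, with Toll-6 and Toll-7 as receptors of other family members.

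Libraries held 3783100 to 9319116 counts, and 7364 to 9839 genes had a count. Levels are CPM, a gene's count scaled to a library total of 1000000, and 3 counts, the floor used here, equal 0.322 to 0.793 CPM. Intervals and floors of this kind cover counting error only. The RNA of the targeted genes did not check the labels: Shal averaged 45.2 ± 29.0 CPM in Notch+Shal RNAi libraries, 47.1 ± 18.1 in Notch RNAi, 100 ± 42.1 in Shal RNAi and 48.5 ± 45.0 in Control, and N averaged 122 ± 180, 89.4 ± 136, 13.4 ± 14.8 and 96.3 ± 115 CPM in the same order (SD). Group names below are therefore those of the labels. All 7 motoneuron markers had counts in every library, at a summed 2580 to 13635 CPM. Mitochondrial RNA took 13.5%, 5.36% and 11.5% of counts in Shal RNAi 1, 2 and 3, and 0.893% to 5.83% elsewhere.

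The spz gene was the only one of the 10 that reached the floor in all 13 libraries, and Drs and IM33 reached it in 12 and 9. The other 7 were at 0 in at least 5 libraries each. On a scale that allows genes to be compared, CPM per kilobase of exon, the mean level over all libraries was highest for Drs (397), followed by IM33 (90.0), spz (32.5), Mtk (20.5), DptA (12.5), CecB (6.67), CecA1 (6.30), DptB (3.23), Dro (2.21) and AttA (1.80). The means of most peptides rested on a few libraries. The summed level of the 8 antimicrobial peptide genes was 8.46, 20.7 and 340.1 CPM in Notch+Shal RNAi libraries, 259, 7.86, 1289 and 103 CPM in Notch RNAi, 28.6, 1.95 and 136 CPM in Shal RNAi, and 16.1, 9.66 and 49.5 CPM in Control. Libraries of 1 group thus differed by more than 10-fold in every group except Control, and the groups overlapped. Of the 10 genes, 2, 6 and 9 reached the floor in the Notch+Shal RNAi libraries, 8, 3, 5 and 8 in the Notch RNAi libraries, 3, 4 and 5 in the Shal RNAi libraries, and 2, 5 and 5 in the Control libraries.

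**Figure D1:**
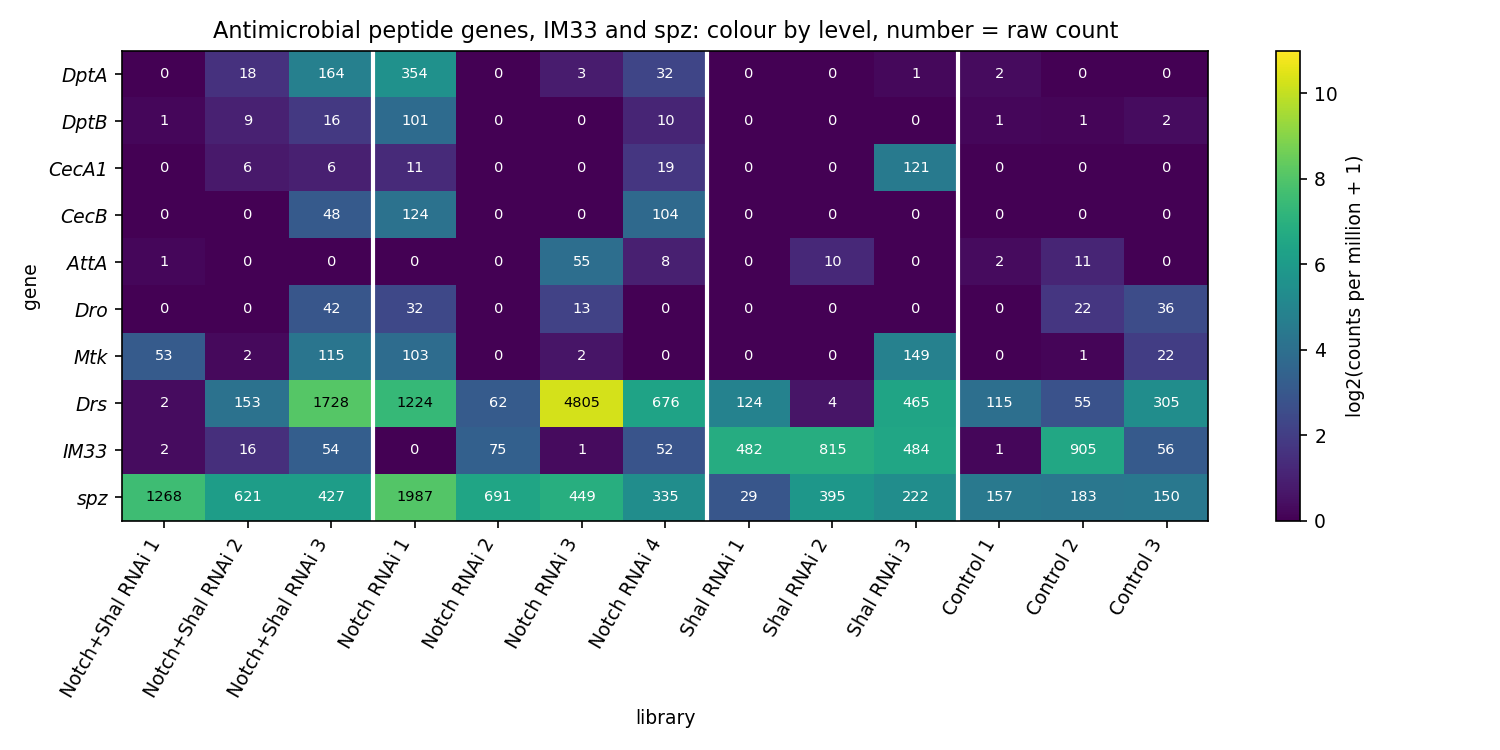
Levels of the 10 genes (rows) in the 13 libraries (columns, groups parted by white lines), as log2(CPM + 1) by colour, with the raw count printed in each cell. The spz row is filled in every library, the IM33 row is highest in Shal RNAi and Control 2, and the peptide rows are filled mostly in Notch+Shal RNAi 3, Notch RNAi 1 and Notch RNAi 4, with Drs highest in Notch RNAi 3.

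The Toll ligand gene spz (FBgn0003495, minus strand of 3R:27064990-27070070 in BDGP6.54) was higher in the libraries that carried Notch RNAi than in Control. It stood at 188, 68.5 and 68.5 CPM in Notch+Shal RNAi libraries, 264, 87.6, 119 and 40.8 CPM in Notch RNAi, 6.70, 54.9 and 41.0 CPM in Shal RNAi, and 21.1, 19.6 and 20.3 CPM in Control. All 7 libraries with Notch RNAi lay above all 3 Control libraries, which 0.213% of the 8908 genes that passed the low-count filter also did. The Control libraries lay close together, while the libraries with Notch RNAi spread over more than 6-fold.

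Group means of spz were 128 ± 96.2 CPM in Notch RNAi, 108 ± 69.1 in Notch+Shal RNAi, 34.2 ± 24.8 in Shal RNAi and 20.3 ± 0.712 in Control (SD). Of neighbours in that order, Notch RNAi and Notch+Shal RNAi overlapped, as did Shal RNAi and Control. In CPM the 3 Notch+Shal RNAi libraries all lay above the 3 Shal RNAi libraries, as they did for 10% of genes tested, and the means differed 3.17-fold. CPM leaves out edgeR's library scaling factors (TMM), 0.568 and 0.620 for Shal RNAi 1 and 3 and 1.26 for Notch+Shal RNAi 2. With these factors spz in Shal RNAi 3 lies above Notch+Shal RNAi 2, so the groups overlap. Notch+Shal RNAi stood 5.33-fold above Control, a separation found in 2.01% of genes, and Notch RNAi 6.28-fold, a separation found in 1.17%. In edgeR's quasi-likelihood test the log2 fold change of spz was 2.49 (SE 0.89, unadjusted p = 0.0111) for Notch+Shal RNAi against Control and 2.86 (SE 0.88, unadjusted p = 0.00389) for Notch RNAi against Control. These were the 13th and 10th lowest p-values of 8908, and neither comparison passed Benjamini-Hochberg adjustment (adjusted p = 1 in both). The 2 comparisons share their Control libraries. Shal RNAi against Control gave 1.29 (SE 0.86, adjusted p = 0.580), and Notch+Shal RNAi against Shal RNAi gave 1.19 (SE 0.86, adjusted p = 0.606), or 0.54 without Notch+Shal RNAi 1.

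With Notch RNAi averaged over Shal status, the log2 fold change of spz was 2.03 (SE 0.61, unadjusted p = 0.00325, adjusted p = 0.724). DESeq2 gave 2.00 and placed spz past its adjusted threshold, which edgeR and limma voom did not. In the same edgeR average, 6 of the 7 motoneuron markers had a log2 fold change below 0 (median -0.53), as did all 6 muscle markers (median -1.24). Of all genes 59.6% lay above 0, and the part of these markers in the spz difference was not tested. As a single value, spz averaged 119 CPM in the 7 libraries with Notch RNAi and 27.3 CPM in the other 6 (2-sided exact permutation p = 0.00641 over 1716 permutations, adjusted p = 1 over 13523 genes with a count). Of the genes tested, 2.09% were higher at an exact p under 0.05 in this split. Without Notch RNAi 1, the highest library, the difference in means was 68.1 CPM, against 92.2 CPM with it. Between single groups the exact p was 0.1 for Notch+Shal RNAi against Control, the smallest that 3 against 3 allow, and 0.0571 for Notch RNAi against Control. The interaction term was -1.66 on the log2 scale (SE 1.17, adjusted p = 0.757). Whether the spz difference between libraries with and without Notch RNAi changed with Shal RNAi was thus not resolved.

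**Figure D2:**
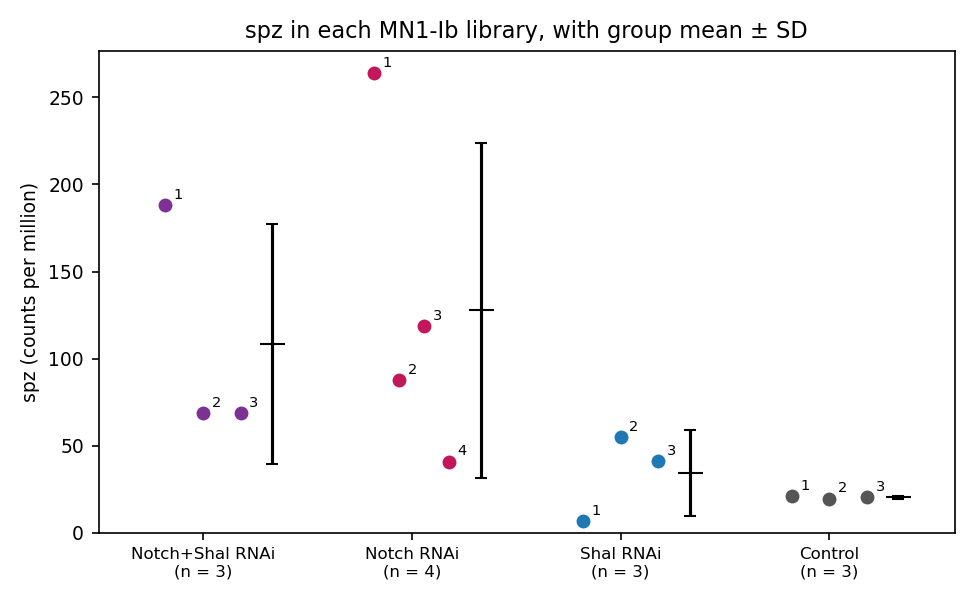
The spz level in CPM (vertical axis, from 0) in each library, numbered by replicate, for Notch+Shal RNAi, Notch RNAi, Shal RNAi and Control, with the group mean and SD beside the points. The 3 Control points lie between 19.6 and 21.1 CPM, and the 7 points with Notch RNAi lie between 40.8 and 264 CPM.

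Exons of spz overlap CG43935 on the opposite strand, and whether the counting used strand is not given in the sources used here. CG43935 had 515 counts in all, 365 of them in Control 1, and at most 10.6 CPM in any library with Notch RNAi. In Control 1 it stood at 49.0 CPM, above the 21.1 CPM of spz there, and in each library with Notch RNAi it lay below spz. Within 20000 bases of spz, 8 other annotated genes were in the table, and none of them exceeded 49.0 CPM in any library.

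Receptors and signalling genes around Spätzle were mostly expressed, and none passed the adjusted threshold in any comparison. Toll itself, Tl, stood at 0.148, 83.7 and 4.82 CPM in Notch+Shal RNAi libraries, 47.4, 81.9, 38.3 and 39.8 CPM in Notch RNAi, 30.7, 80.9 and 50.4 CPM in Shal RNAi, and 40.6, 50.1 and 28.4 CPM in Control. Tl was nearly missing from Notch+Shal RNAi 1, the library of that group with the most spz. The log2 fold change of Tl with Notch RNAi averaged over Shal status was -0.53 (SE 0.80).

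Toll-7, a neurotrophin receptor of the same family, stood at 39.9, 176 and 23.0 CPM in Notch+Shal RNAi libraries, 294, 85.8, 107 and 156 CPM in Notch RNAi, 0.231, 12.8 and 38.6 CPM in Shal RNAi, and 3.35, 4.83 and 58.3 CPM in Control. All 4 Notch RNAi libraries lay above all Control libraries, as for 1.17% of genes tested, and Notch+Shal RNAi overlapped both Shal RNAi and Control. Its log2 fold change was 3.10 for Notch RNAi against Control (SE 1.25, unadjusted p = 0.0221, adjusted p = 1), the lowest p in that comparison among the pathway genes listed beside the 10. Averaged over Shal status it was 2.26 (SE 0.86, adjusted p = 0.724).

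Toll-6, the most abundant member of the receptor family, stood at 594, 1431 and 229 CPM in Notch+Shal RNAi libraries, 736, 630.2, 346 and 577 CPM in Notch RNAi, 1500.2, 540.1 and 1337 CPM in Shal RNAi, and 486, 320.1 and 355 CPM in Control. Every Shal RNAi library lay above every Control library, as for 3.38% of genes tested, with a log2 fold change of 2.38 (SE 0.69, adjusted p = 0.325). All 7 motoneuron markers also had a log2 fold change above 0 in this comparison (median 1.41), against 41.9% of all genes (median -0.33), and their part in the Toll-6 difference was not tested. Tollo, another receptor of the family, was at 0, 8.49 and 116 CPM in Notch+Shal RNAi libraries, 14.2, 0, 0.529 and 62.6 CPM in Notch RNAi, 0.231, 0.139 and 0 CPM in Shal RNAi, and 19.99, 0.322 and 42.9 CPM in Control.

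Inside the cell, the inhibitor cact averaged over Shal status had a log2 fold change of 0.10 with Notch RNAi (SE 0.60), the factors Dif and dl 0.36 (SE 1.12) and 0.62 (SE 0.91). The Relish gene Rel had 0.01 (SE 0.67) and imd 0.17 (SE 0.89). All 5 were within 1 SE of 0. The kinase gene pll stood at 10.98, 12.5 and 0.321 CPM in Notch+Shal RNAi libraries, 0.266, 0, 0 and 19.0 CPM in Notch RNAi, 0 in all 3 Shal RNAi libraries, and 11.3, 21.4 and 22.2 CPM in Control. Its interaction term had the lowest p of the listed pathway genes in edgeR (unadjusted p = 0.0157, adjusted p = 0.554). With no count in any Shal RNAi library, pll passed the filter only through the libraries in which it was high, so that p carries no weight of its own. The ubiquitin-conjugating enzyme gene ben and the JNK gene bsk, at 262 to 1220 and 332 to 1642 CPM, were the most abundant genes of the Toll and Imd lists, casp (3.92 to 394 CPM) of the negative regulators, and GNBP3 (3.88 to 194 CPM) of the recognition proteins.

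IM33 (FBgn0031561, minus strand of 2L:3696218-3696658) encodes a small secreted peptide with a Kunitz-type protease inhibitor domain, found as an immune-induced molecule of the hemolymph. It was lower in the libraries with Notch RNAi than in the Shal RNAi libraries. It stood at 0.297, 1.76 and 8.67 CPM in Notch+Shal RNAi libraries, 0, 9.51, 0.264 and 6.33 CPM in Notch RNAi, 111, 113 and 89.4 CPM in Shal RNAi, and 0.134, 97.1 and 7.60 CPM in Control. The Shal RNAi libraries lay close together and above every library except Control 2, and the Control libraries alone ran from 0.134 to 97.1 CPM.

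Group means of IM33 were 3.58 ± 4.47 CPM for Notch+Shal RNAi, 4.03 ± 4.68 for Notch RNAi, 105 ± 13.3 for Shal RNAi and 34.9 ± 54.0 for Control (SD). From high to low the order was thus Shal RNAi, Control, Notch RNAi and Notch+Shal RNAi, and neighbours in it overlapped. All 3 Notch+Shal RNAi libraries lay below all 3 Shal RNAi libraries, as in 2.59% of genes tested, and the smallest exact p of 3 against 3, 0.1, was reached. The edgeR log2 fold change for Notch+Shal RNAi against Shal RNAi was -5.39 (SE 1.96, unadjusted p = 0.0133, adjusted p = 0.460), where 4.77% of all genes were lower at an unadjusted p under 0.05. With Notch RNAi averaged over Shal status it was -4.25 (SE 1.26, unadjusted p = 0.00338, adjusted p = 0.724), the 32nd lowest p of 8908. DESeq2, and edgeR without the low-count filter, placed IM33 past the adjusted threshold in both of these comparisons. The 7 libraries with Notch RNAi averaged 3.83 CPM and the other 6 averaged 69.8 CPM (2-sided exact permutation p = 0.0122, adjusted p = 1 over 13523 genes), and 1.59% of genes tested were lower at an exact p under 0.05 in this split. In Notch+Shal RNAi against Shal RNAi, 6 of the 7 motoneuron markers had a log2 fold change below 0 (median -1.76), as did all 6 muscle markers (median -1.51). Of all genes 60.3% lay above 0, and the part of these markers in the IM33 difference was not tested.

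Against Control alone the IM33 difference rested on 1 library. The log2 fold changes were -3.11 for Notch+Shal RNAi (SE 1.77) and -3.11 for Notch RNAi (SE 1.58), and without Control 2 they were 0.19 and 0.20. Shal RNAi against Control gave 2.28 (SE 1.70, adjusted p = 0.627) and 5.57 without Control 2. Without Shal RNAi 1 and 3, the libraries with the most mitochondrial RNA, the mean of the 7 libraries with Notch RNAi minus that of the remaining 4 was -50.7 CPM (exact permutation p = 0.0636).

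Of the 10 other genes within 4000 bases of IM33, 6 had counts in at least 10 libraries, and this set was drawn up after the values were seen. These were CG16713, CG43165, CG10031, CR43364, CG3513 and CG16704. Like IM33, all 6 had a lower mean in Notch RNAi than in Shal RNAi, and 5 of them, all but CG10031, a lower mean in Notch+Shal RNAi than in Shal RNAi. All 6 also had a lower mean in Notch RNAi than in Control, as IM33 had. Unlike IM33, none of the 6 had a lower mean in Notch+Shal RNAi than in Control when all libraries were used. CG16704, the most abundant, averaged 428 CPM in Notch+Shal RNAi libraries, 117 in Notch RNAi, 1491 in Shal RNAi and 198 in Control. CG16713, 806 bases from IM33, stood at 147, 5.40 and 630 CPM in Notch+Shal RNAi libraries, 65.6, 7.23, 44.1 and 44.3 CPM in Notch RNAi, 1905, 69.9 and 345 CPM in Shal RNAi, and 20.5, 217 and 15.3 CPM in Control. In Notch+Shal RNAi 3 all 6 neighbours lay above every Control library, while IM33 was at 8.67 CPM there. Without that library the Notch+Shal RNAi means of all but CG10031 lie below the Control means. These differences between neighbours were not tested, and no share over all genes was computed for them.

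Drs (FBgn0283461, plus strand of 3L:3369556-3369942) encodes the antifungal peptide drosomycin. It was the most abundant of the 8 peptide genes and varied by more than 1000-fold. It stood at 0.297, 16.9 and 277 CPM in Notch+Shal RNAi libraries, 163, 7.86, 1270.1 and 82.4 CPM in Notch RNAi, 28.6, 0.556 and 85.9 CPM in Shal RNAi, and 15.4, 5.90 and 41.4 CPM in Control. The 3 highest libraries all carried Notch RNAi, but so did the lowest, and every pair of groups overlapped.

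Group means of Drs were 381 ± 596 CPM in Notch RNAi, 98.2 ± 155 in Notch+Shal RNAi, 38.3 ± 43.5 in Shal RNAi and 20.9 ± 18.4 in Control (SD). The log2 fold change was 2.53 (SE 2.18, adjusted p = 1) for Notch+Shal RNAi against Control, 4.41 (SE 2.32, adjusted p = 1) for Notch RNAi alone and 1.84 (SE 2.13, adjusted p = 0.781) for Shal RNAi against Control. The first turned to -1.35 without Notch+Shal RNAi 3 and to -0.41 with limma voom, which also turned the third to -0.75. The 7 libraries with Notch RNAi averaged 260 CPM and the other 6 averaged 29.6 CPM (2-sided exact permutation p = 0.203). Without Notch RNAi 3 the difference in means was 61.6 CPM, against 230.0 CPM with it.

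Drsl5, a drosomycin-like gene on the same chromosome arm, had counts in every library and also varied widely, over a narrower range than Drs. It stood at 46.0, 34.5 and 402 CPM in Notch+Shal RNAi libraries, 1063, 14.8, 493 and 347 CPM in Notch RNAi, 5.54, 25.7 and 319 CPM in Shal RNAi, and 4.16, 56.7 and 149 CPM in Control. Its highest library was Notch RNAi 1, where Drs was at 163 CPM. The 12 Bomanin genes, short peptides downstream of Toll, had counts summing to 91.7 CPM over 9 genes in Notch RNAi 3, the library with the most Drs. Their sum was 45.7 CPM in Shal RNAi 1 and 30.1 CPM in Shal RNAi 3, at most 12.9 CPM in the other libraries, and 0 in Notch RNAi 1 and 4, Shal RNAi 2 and Control 2.

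**Figure D3:**
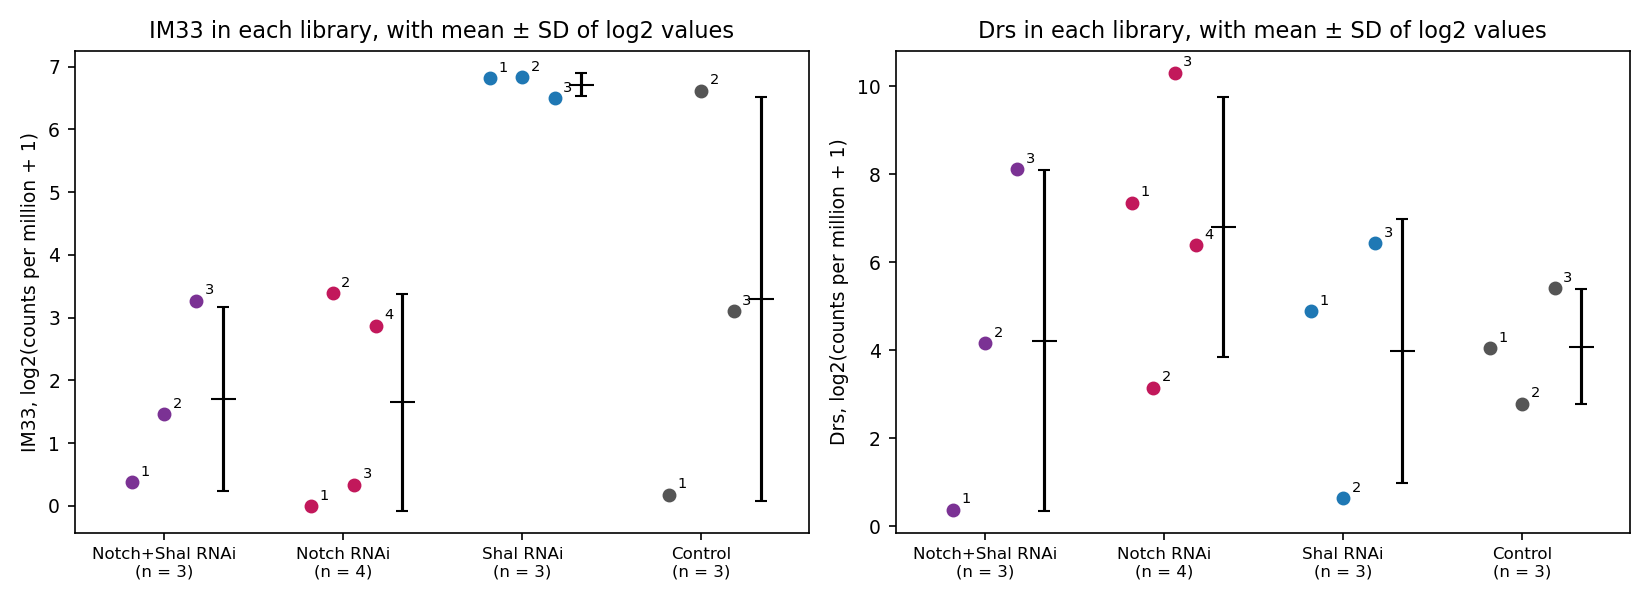
IM33 (left panel) and Drs (right panel) as log2(CPM + 1) in each library, numbered by replicate, with the mean and SD of the log2 values beside the points. IM33 lies above 6 in all Shal RNAi libraries and in Control 2 and below 4 in the rest, while the Drs points of every group overlap.

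The diptericin genes encode glycine-rich peptides against Gram-negative bacteria and lie side by side, DptA at 2R:18865765-18866260 and DptB at 2R:18867391-18867895 on the plus strand, 1130 bases apart. DptA had 0, 18 and 164 counts (0, 1.99 and 26.3 CPM) in Notch+Shal RNAi, 354, 0, 3 and 32 counts (47.0, 0, 0.793 and 3.90 CPM) in Notch RNAi, 0, 0 and 1 counts in Shal RNAi, and 2, 0 and 0 counts in Control. It reached 3 counts in 5 of 7 libraries with Notch RNAi and in 0 of the other 6. No share over all genes was computed for this split, and DptA could pass the low-count filter only through the libraries in which it was high. The 2-sided exact permutation p for its mean CPM was 0.168, with 11.4 CPM in the libraries with Notch RNAi and 0.0755 CPM in the others. DptB had 1, 9 and 16 counts in Notch+Shal RNAi, 101, 0, 0 and 10 counts in Notch RNAi, none in Shal RNAi, and 1, 1 and 2 counts in Control. It was highest in the same 4 libraries as DptA, and its exact permutation p was 0.150. DptB shares exon bases with CG43109 on the opposite strand, which had 542 counts in Notch RNAi 1, the library with the most DptB, and 298 in Shal RNAi 1, where DptB had none.

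Cecropins are helical peptides that lyse bacteria, and their genes form a cluster on 3R, where CecA1 (3R:30210874-30211273), CecA2, CecB (3R:30213315-30213797, minus strand) and CecC follow each other with 882, 746 and 2686 bases between them. CecB had 0, 0 and 48 counts in Notch+Shal RNAi, 124, 0, 0 and 104 counts in Notch RNAi, and none in any Shal RNAi or Control library. Its mean of 7.28 CPM in Notch RNAi was at least 19.3-fold higher than the mean floor of 3 counts per Control library, and its mean of 2.57 CPM in Notch+Shal RNAi at least 6.81-fold higher. The second bound rests on Notch+Shal RNAi 3 alone. Without Notch RNAi 1 the first is at least 11.2-fold and then rests on Notch RNAi 4 alone. The exact permutation p for CecB in the libraries with Notch RNAi against the other 6 was 0.192. CecA1 was at 0, 0.662 and 0.963 CPM in Notch+Shal RNAi libraries, 1.46, 0, 0 and 2.31 CPM in Notch RNAi, 0, 0 and 22.3 CPM in Shal RNAi, and 0 in Control. Its highest library was thus Shal RNAi 3, which had no count of CecB or CecA2 and 7.02 CPM of CecC. All 4 genes were detected together in Notch+Shal RNAi 3, Notch RNAi 1 and Notch RNAi 4, and none of them in 8 libraries. Reads of these similar copies may have been split between them, since the treatment of reads with several matches is not given in the sources used here.

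Other genes tied to the Imd route had their highest levels in different libraries. The attacin gene AttD was found only in Notch RNAi 1 (42.9 CPM) and Notch+Shal RNAi 3 (15.6 CPM). Its relative AttC was highest in Control 2 (8.16 CPM), and Notch+Shal RNAi 3 had 4.17 CPM of it and Notch RNAi 1 had 4.12 CPM. The peptidoglycan recognition protein gene PGRP-SB1 was highest in Control 3 (15.7 CPM). The gene pirk, a feedback inhibitor of the Imd route, stood at 0, 5.18 and 3.21 CPM in Notch+Shal RNAi libraries, 102, 0, 0 and 76.4 CPM in Notch RNAi, 0 in Shal RNAi, and 0, 0.107 and 4.07 CPM in Control (edgeR unadjusted p = 0.0119, adjusted p = 0.724 with Notch RNAi averaged over Shal status). Without Notch RNAi it rose above 0.107 CPM only in Control 3. It thus passed the filter through the libraries in which it was high, and its p carries no weight of its own. PGRP-LA, a peptidoglycan recognition protein gene, was at 0.148, 0 and 18.6 CPM in Notch+Shal RNAi libraries, 14.5, 0, 0.264 and 8.28 CPM in Notch RNAi, and 0 in all Shal RNAi and Control libraries. Averaged over Shal status, PGRP-LA had the lowest p of the listed pathway genes in edgeR (unadjusted p = 0.00623, adjusted p = 0.724), but with no count in the other 6 libraries it passed the filter only through those in which it was high, so that p carries no weight of its own. PGRP-LC, the receptor gene of the route, reached 26.2 CPM in Control 3, above all libraries with Notch RNAi (adjusted p = 0.754 in that average). IKKbeta, a kinase of the route, was found in Notch RNAi 4 (24.4 CPM), Shal RNAi 3 (3.51 CPM) and Control 3 (18.2 CPM), and below 2 CPM elsewhere.

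Of the 5 markers of other neurons on the list, ple, picked after its values were seen, was also high in Notch RNAi 1, Notch RNAi 4 and Notch+Shal RNAi 3. This tyrosine hydroxylase gene, which among neurons marks dopaminergic ones, stood at 498, 437 and 203 CPM in these 3 libraries. The whole list summed to 561, 440 and 212 CPM there. Elsewhere ple stood at 143 CPM in Shal RNAi 3, 77.7 CPM in Control 3, and at most 20.4 CPM in the rest. Only 2 or 3 of the 5 markers had counts in each library, and ple made up most of the sums given. Sums of other marker lists stood out in single libraries. The glia list was highest in Notch RNAi 4 (763 CPM, at most 257 elsewhere), as was the trachea list (398 CPM, at most 131 elsewhere). The midgut list stood at 640.5 CPM in Notch RNAi 3, the library with the most Drs, and at 3062 CPM in Control 2, the Control library with high IM33, and at most 76.4 CPM elsewhere. The part of such cells in the peptide levels was not tested.

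**Figure D4:**
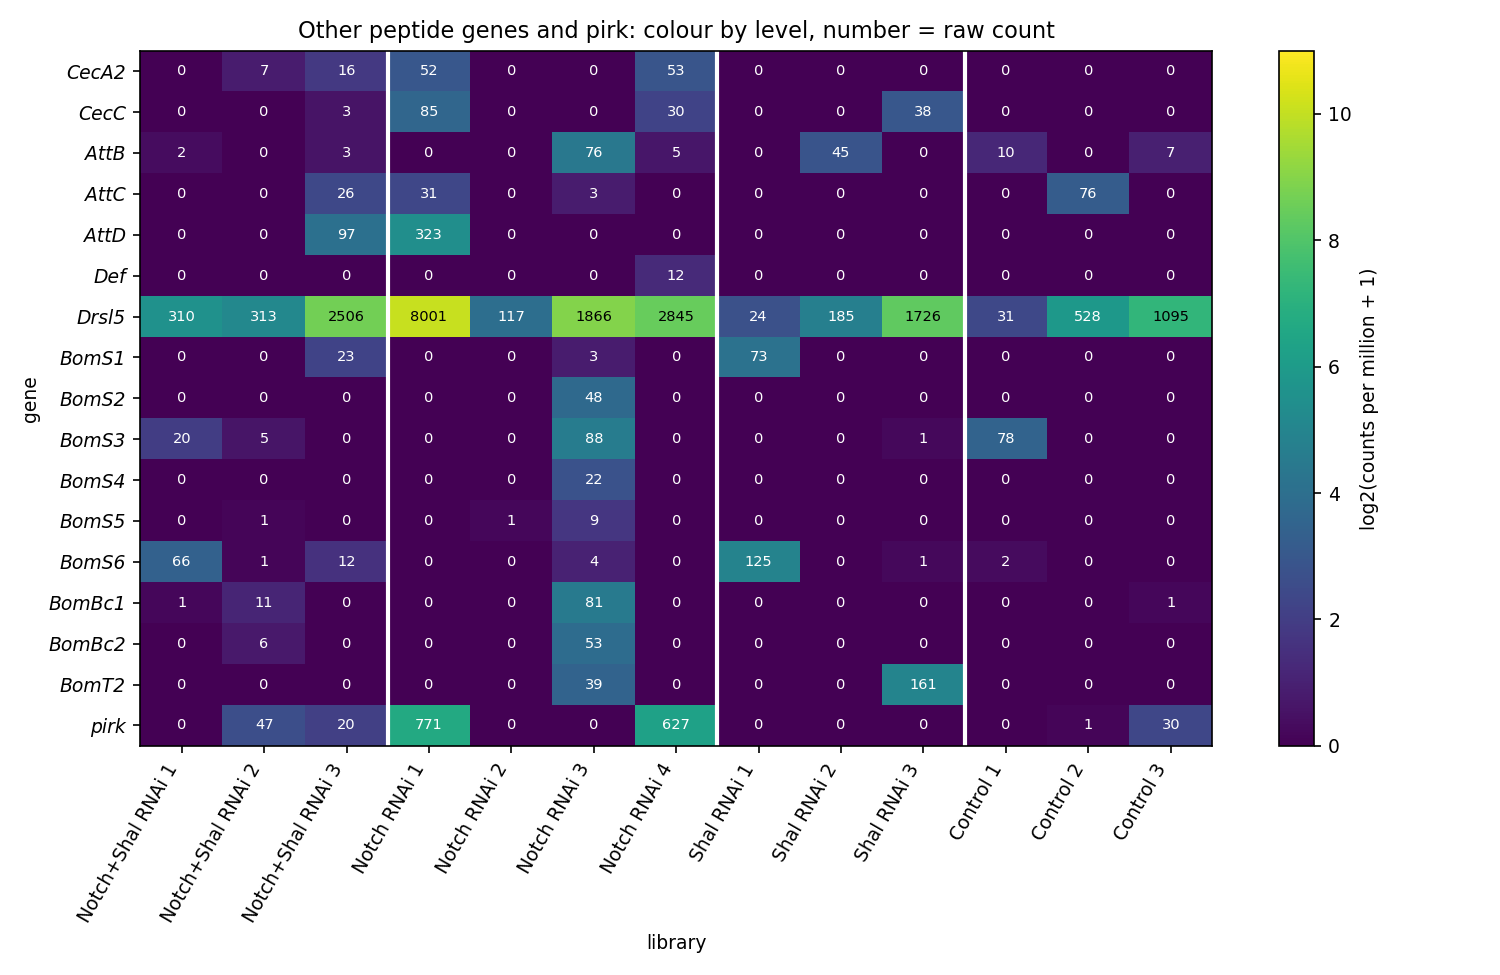
Levels of 16 further peptide genes and pirk (rows) in the 13 libraries (columns), as log2(CPM + 1) by colour with the raw count in each cell. Drsl5 has counts in every library, CecA2 and pirk are highest in Notch RNAi 1 and 4, AttD in Notch RNAi 1, CecC also in Shal RNAi 3, and the Bomanin rows mostly in Notch RNAi 3.

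The remaining peptides showed no pattern that followed the groups. AttA (2R:14747362-14748215), an attacin gene, stood at 0.148, 0 and 0 CPM in Notch+Shal RNAi libraries, 0, 0, 14.5 and 0.975 CPM in Notch RNAi, 0, 1.39 and 0 CPM in Shal RNAi, and 0.268, 1.18 and 0 CPM in Control. Its near-identical neighbour AttB was highest in the same library, Notch RNAi 3, at 20.1 CPM, and the counts of the pair cannot be told apart with certainty. Dro (2R:14745961-14746714), the drosocin gene, lies 647 bases from AttA and stood at 0, 0 and 6.74 CPM in Notch+Shal RNAi libraries, 4.25, 0, 3.44 and 0 CPM in Notch RNAi, 0 in Shal RNAi, and 0, 2.36 and 4.88 CPM in Control. It had no count in any Shal RNAi library, and Control reached levels as high as Notch RNAi did.

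Mtk (2R:15408846-15409113), the gene of the antifungal and antibacterial peptide metchnikowin, stood at 7.87, 0.221 and 18.5 CPM in Notch+Shal RNAi libraries, 13.7, 0, 0.529 and 0 CPM in Notch RNAi, 0, 0 and 27.5 CPM in Shal RNAi, and 0, 0.107 and 2.98 CPM in Control. Its highest library was Shal RNAi 3, as for CecA1. The 2-sided exact permutation p for the libraries with Notch RNAi against the rest was 0.939 for AttA, 0.551 for Dro and 0.916 for Mtk. For the 6 libraries with Shal RNAi against the other 7, the lowest exact permutation p of any of the 10 genes was 0.136, for IM33, which averaged 54.1 CPM with Shal RNAi and 17.3 CPM without it.

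Of the 10 genes, 8 passed the low-count filter of the edgeR test, and DptB and AttA did not. None of the 8 passed the adjusted threshold in any of 8 comparisons. All genes gave 0.0225% calls with Notch RNAi averaged over Shal status, namely 2 genes, mthl8 (log2 fold change -10.04) and y (4.91), and 0.0% in each of the other 7 comparisons. At an unadjusted p under 0.05, spz was higher in Notch+Shal RNAi than in Control (1 of the 8 genes, against 1.21% of all genes), and spz, DptA and CecB were higher in Notch RNAi than in Control (3 of the 8, against 0.954%). In Shal RNAi against Control, CecA1 alone was higher (against 5.68%), with all its Shal RNAi counts in Shal RNAi 3. The same gene was lower in the interaction term (against 3.69%) and higher with Shal RNAi averaged over Notch status (against 4.27%). In the average over Shal status, spz, DptA and CecB were higher with Notch RNAi (against 3.99%) and IM33 was lower (against 2.63%). DptA, CecB and CecA1 are genes that could pass the filter only through the libraries in which they are high, so their count carries no weight of its own. In the other tools run, DESeq2 called spz and IM33 in that average and IM33 in Notch+Shal RNAi against Shal RNAi, edgeR without the filter called Drs and IM33, and limma voom called none of the 8.

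**Figure D5:**
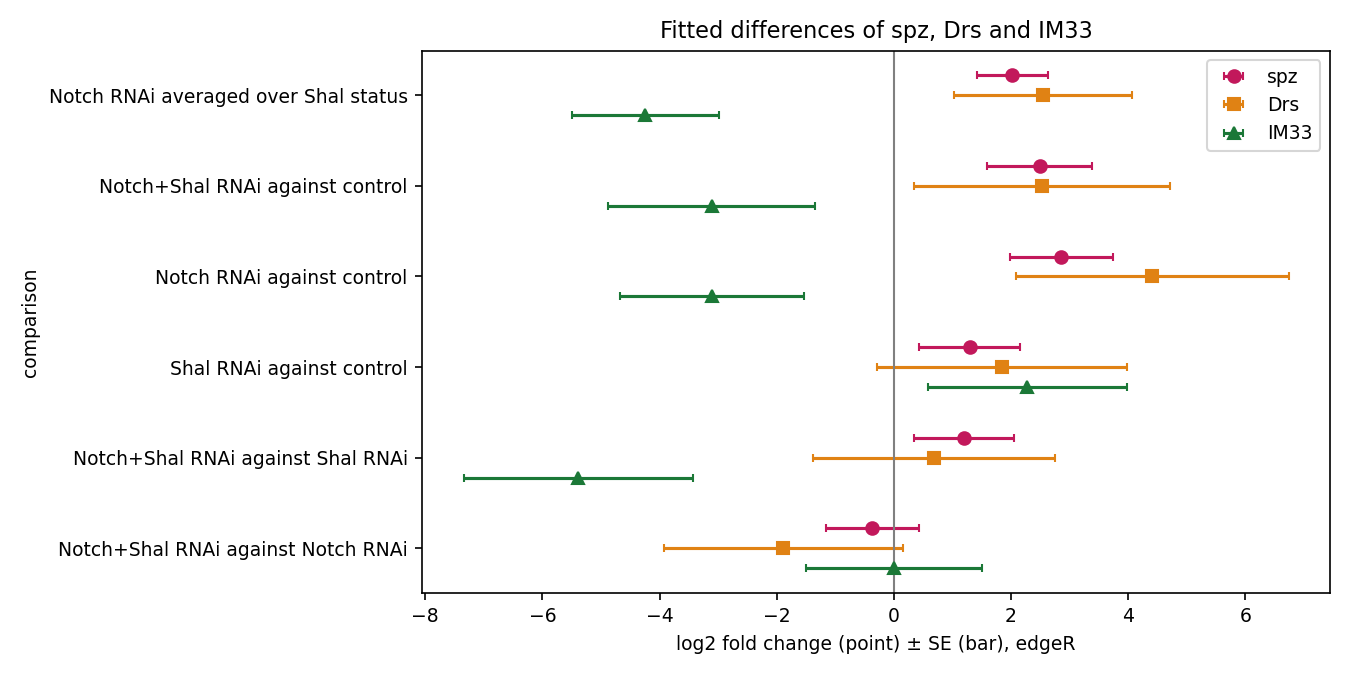
Fitted log2 fold changes (points) with SE (bars) of spz, Drs and IM33 in 6 comparisons (rows). The spz points lie above 0 in the rows that set Notch RNAi against libraries without it, from 1.19 to 2.86, the IM33 points of those rows lie between -5.39 and -3.11, and the Drs bar is the widest in each row.

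The other genes of these routes were described as lists, none of which had a member past the adjusted threshold. In Notch RNAi averaged over Shal status, 12 of the 12 tested Toll-route genes inside the cell had a log2 fold change above 0 (median 0.44), as did 11 of 15 Imd-route genes (median 0.19), 8 of 10 negative regulators (median 0.89), 4 of 7 other ligands and receptors (median 1.31), 9 of 14 recognition and protease genes (median 0.40) and 7 of 11 further peptides (median 1.44). Over all genes tested 59.6% were above 0 and the median was 0.20. In single comparisons the Toll-route list was nearer to all genes, with 8 of 12 above 0 in Notch+Shal RNAi against Control (55.9% of all genes), 9 of 12 in Notch RNAi against Control (50.3%) and 7 of 12 in Notch+Shal RNAi against Shal RNAi (60.3%). In Shal RNAi against Control, 6 of the 12 Toll-route genes and 5 of the 15 Imd-route genes were above 0, against 41.9% of all genes, whose median was -0.33. Of 38 further peptide genes in the table, 12 had no count in any library. TotA, a stress-induced humoral factor, was the most abundant of them, at 21.4 CPM in Notch+Shal RNAi 2 to 7639.6 CPM in Shal RNAi 1.

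Fat body and blood cells are the main sources of these peptides in the larva, and RNA of both was found in the libraries. Of 10 fat body genes, 8 to 10 had counts in each library, at a summed 1825 to 20496 CPM in Notch+Shal RNAi libraries, 2407 to 9893 CPM in Notch RNAi, 6242 to 11267 CPM in Shal RNAi and 5736 to 16466 CPM in Control. Of 10 hemocyte genes, 6 to 10 had counts, at a summed 146 to 1237 CPM in Notch+Shal RNAi libraries, 29.7 to 266 CPM in Notch RNAi, 104 to 591 CPM in Shal RNAi and 105 to 380.0 CPM in Control. The lowest sum and the fewest genes, 6 of 10 at 29.7 CPM, were in Notch RNAi 2, where NimC1, Pxn, Sr-CI and srp were at 0. In Notch+Shal RNAi against Control, 9 of the 10 hemocyte genes had a log2 fold change above 0 (median 2.41), against 55.9% of all genes. In Notch RNAi against Control 4 of the 10 did (median -0.40), against 50.3% of all genes, and none of the 10 passed the adjusted threshold in either comparison. Notch+Shal RNAi 3, with 9 of the 10 genes at the floor, had the highest sum of both lists. Other libraries did not follow this order. Notch+Shal RNAi 1, with 2 at the floor, had 15792 CPM of fat body and 445 CPM of hemocyte genes, and Control 2, with 5, had 16466 and 380 CPM. Notch RNAi 1 and 4, with 8 each, had 6274 and 9893 CPM of fat body genes and 209 and 266 CPM of hemocyte genes. Fewer cells of a type and less RNA per cell cannot be told apart in such pools, and the part of these cells in the peptide levels was not tested.

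Genes were also ranked by how closely their levels followed those of spz, IM33 and Drs over the 13 libraries, by the root mean square difference of standardised log2(CPM + 1). Nearest to spz were plum (0.513), a neuronal immunoglobulin-family receptor gene, CG11523 (0.537) and lncRNA:CR44348 (0.657), where the median over all genes was 1.40. Nearest to IM33 were CG13698 (0.481), asRNA:CR43629 (0.544) and qtc (0.576), with a median of 1.51. Nearest to Drs were firl (0.617), CG9812 (0.638) and CG14406 (0.648), with a median of 1.44. None of the peptide genes was among these nearest genes.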

How the data were processed

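The authors deposited unnormalised counts of reads per gene for 13 libraries. The submitters' processing notes name BDGP6 as build and R 3.6.1, limma 3.40.6, edgeR 3.26.7 and STAR 2.7.0e as tools. How strand, duplicates and multiply matching reads were treated is not given in the sources used here. Per the labels' protocols, polyA RNA was amplified by template switching and PCR, without a described molecular identifier, and read in pairs of 100 bases. Symbols and coordinates come from BDGP6.54, which held 17626 of 17753 identifiers.

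CPM is a gene's count scaled to a library total of 1000000. TMM factors ran from 0.568 (Shal RNAi 1) to 1.41 (Notch RNAi 4) and were not applied to CPM unless stated. edgeR 4.0.16 in R 4.3.3 fitted 4 groups by robust quasi-likelihood after TMM scaling and its filter on low counts (settings 10 and 15 for a count and a total), with 8 comparisons, 2-sided tests and Benjamini-Hochberg adjustment at 0.05 over 8908 genes. The median dispersion was 1.36. Mean CPM was compared by 2-sided exact permutation. Both were tested on simulated data. Alternatives were RLE and TMMwsp factors, no filter, DESeq2 1.42.0, limma 3.58.1 voom, a replicate block, and leaving out libraries.

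The 10 genes, the lists and the tests were chosen with earlier results of these data known. Named beside the 10 were Tl, Dif, dl, cact, Rel, imd and PGRP-LC, the listed pathway gene with the lowest p per comparison and the most abundant of each list. For likeness, the 3 nearest genes were named. AttD, CecA2, CecC, AttB, Drsl5, AttC, PGRP-SB1, pirk, ple, IKKbeta, the Bomanins and the neighbours of IM33 were named after their values were seen. BaraA2 and 18w were not found in the table. No label used here pairs the libraries by replicate number.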

Additional observations from a re-analysis of the deposited data

Results flagged for a closer look

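Within the 4 Notch RNAi libraries, 1 library stood far from the other 3 (Dixon's ratio above 0.829) for 5 of the 10 genes. The ratio assumes normal values, for which chance gives about 1 in 20 groups, and CPM here are skewed. Of all 11391 genes whose levels differed among these 4 libraries, 36.4% passed the same ratio, so it does not set the 10 genes apart. DptA at 47.0 CPM, DptB at 13.4 CPM and Mtk at 13.7 CPM were each highest in Notch RNAi 1. AttA at 14.5 CPM and Drs at 1270.1 CPM were highest in Notch RNAi 3. Groups of 3 were not examined in this way.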

How the results depend on the processing

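Low-count filter and tool moved the counts of called genes most. In the order Notch+Shal RNAi, Notch RNAi and Shal RNAi against Control, Notch+Shal RNAi against Shal RNAi and against Notch RNAi, interaction, Notch RNAi averaged and Shal RNAi averaged, edgeR called 0 genes except 2 in the Notch average. Without the filter it called 27, 30, 138, 111, 26, 65, 70 and 86, and DESeq2 called 24, 32, 309, 308, 33, 118, 122 and 132. RLE, TMMwsp and voom left all 8 counts as they were. TMMwsp factors moved the median log2 fold change of all genes from -0.33 to -0.06 for Shal RNAi against Control. Leaving out Shal RNAi 1 and 3 together, chosen after seeing the data, gave 1 call in the Notch average. Leaving out 1 library gave 0 to 110 calls for Shal RNAi against Control (110 without Shal RNAi 2), 0 to 11 for Notch+Shal RNAi against Shal RNAi (11 without Shal RNAi 2), 0 to 1 for Notch RNAi against Control (1 without Shal RNAi 3), 0 to 1 in the Shal average (1 without Notch RNAi 4) and 2 to 4 in the Notch average (4 without Shal RNAi 2). The causes were not tested. A replicate block, under which the log2 fold change of spz in the Notch average was 2.01, changed no call among the 10 genes, with 0 genes called in 7 comparisons and 2 in the Notch average. No label used here ties replicate numbers across groups. Deviations of same-numbered libraries correlated at -0.176 to 0.239 and of others at -0.294 to 0.350. Ranges that overlap cannot decide whether same-numbered libraries are paired, and this was not tested.

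For spz, the log2 fold changes against Control and against Shal RNAi and the Notch average kept their sign under every alternative. In edgeR leaving out 1 library they ran from 1.83 to 2.78 for Notch+Shal RNAi, 2.13 to 3.16 for Notch RNAi, 1.66 to 2.22 in the Notch average and 0.54 to 1.58 for Notch+Shal RNAi against Shal RNAi. For Notch+Shal RNAi against Notch RNAi spz ran from -1.03 to 0.36. IM33 ran from -5.15 to 0.19 and from -4.21 to 0.20 for Notch+Shal RNAi and Notch RNAi against Control, from -5.26 to -2.59 in the Notch average, from -7.42 to -4.84 for Notch+Shal RNAi against Shal RNAi, and from -2.05 to 1.10 for Notch+Shal RNAi against Notch RNAi, where it also turned to 0.0049 with RLE, 0.017 with DESeq2, 0.63 with voom and 2.15 with the replicate block. Drs ran from -1.35 to 3.38 for Notch+Shal RNAi against Control, -3.18 to 1.94 against Shal RNAi and -5.76 to 0.34 against Notch RNAi. With voom Drs was -0.41 for Notch+Shal RNAi and -0.75 for Shal RNAi against Control, and -4.98 for Shal RNAi without Shal RNAi 1 and 3. Without the filter, edgeR called Drs in Notch RNAi against Control (4.41) and in the Notch average (2.56).

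For mean CPM with Notch RNAi minus the rest, leaving out 1 library gave -3.70 to 0.772 for CecA1, -0.286 to 2.14 for AttA and -1.38 to 5.20 for Mtk, and spz and IM33 kept an exact permutation p under 0.05 each time. Mtk was -1.84 on TMM-normalised CPM and CecA1 0.772 without Shal RNAi 1 and 3. For mean CPM with Shal RNAi minus the rest, the ranges were -6.99 to 3.92 for DptA, -1.94 to 0.330 for DptB, -0.214 to 4.25 for CecA1, -200.1 to 15.7 for Drs and -33.8 to 19.9 for spz, and without Shal RNAi 1 and 3 CecA1 was at -0.133 and spz at 13.3. Levels under about 1 CPM rest on few counts, so absence of a peptide from a library is not shown at this depth.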

Other observations

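The libraries with the most of the 10 genes at the floor were Notch+Shal RNAi 3 (9), Notch RNAi 1 (8) and Notch RNAi 4 (8), and all 3 had counts of DptA, DptB and the 4 cecropin genes. DptA, DptB and CecB stood at 26.3, 2.57 and 7.70 CPM in Notch+Shal RNAi 3, at 47.0, 13.4 and 16.5 CPM in Notch RNAi 1 and at 3.90, 1.22 and 12.7 CPM in Notch RNAi 4. Libraries with 5 of the 10 at the floor were Notch RNAi 3, Shal RNAi 3, Control 2 and Control 3. Of these, Notch RNAi 3 had Drs at 1270.1 CPM, Bomanin genes at a summed 91.7 CPM, and AttA with AttB at a summed 34.6 CPM, with no count of any cecropin gene, AttD or pirk. Shal RNAi 3 had CecA1 at 22.3 CPM and Mtk at 27.5 CPM, with no count of CecB, DptB, AttD or pirk. These are single reactions, and no test was made of the difference between them.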
